A study of Mus musculus with 4 samples.

Results

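Transcripts of 10 BCL2 family genes were compared between conventional dendritic cells type 2 (cDC2) labelled Id2 knockout (Id2 KO) and wild type (WT). The genes were listed by name and by role, as pro-survival (Bcl2, Bcl2l1 and Mcl1), effector (Bax and Bak1) and BH3-only (Bcl2l11, Bid, Bad, Pmaip1 and Bbc3), and each was measured by the brightest probe set annotated to its symbol alone. In this way 9 of the 10 were measured, out of 19938 genes named on the array. Bax has no probe set of its own symbol in the annotation used and was not analysed here, so the effector role rests on Bak1. Each of the 9 has a single such probe set, and all 9 passed the filter on low values.

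The Id2 KO group holds 2 arrays of cDC2 from the spleens of Id2 KO Zbtb46-GFP chimeric mice, and the WT group holds 2 arrays of cDC2 from the spleens of Zbtb46-GFP chimeric mice. Both groups thus carry the Zbtb46-GFP reporter, in which green fluorescent protein marks cells that express a transcription factor of conventional dendritic cells. The labels give no age, no allele of the knockout, no host or donor of the chimeras and no word on whether different mice were used for the replicates, so the spread behind the p-values may be technical only. Bone marrow is mentioned beside spleen in the text on the series' design, and the sample labels give spleen.

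Proteins of the BCL2 family decide whether the outer mitochondrial membrane stays closed. The effectors BAX and BAK form pores that release cytochrome c and start the caspase cascade, pro-survival members such as BCL-2, BCL-XL and MCL-1 hold the effectors and their activators in check, and BH3-only members are stress sensors that neutralise the pro-survival proteins or activate the effectors directly. Dendritic cells are short-lived, and their lifespan is known to be shortened by BIM, the product of Bcl2l11, and prolonged by BCL-2. Much of the family is also controlled through protein stability, cleavage and phosphorylation, which arrays do not measure.

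Id2 encodes a helix-loop-helix protein that keeps E proteins from DNA, and E proteins bind the E-box, CANNTG. The start regions of the members with the largest differences, Bcl2l11, Bid and Mcl1, are therefore shown, from 250 bases before to 50 bases after each annotated start (RefSeq, GRCm38.p6), written 5′ to 3′ along the gene with each match to CANNTG in capitals. Both strands were covered, since the pattern reads the same on each.
Mcl1, chr3:95658471-95658770, plus strand: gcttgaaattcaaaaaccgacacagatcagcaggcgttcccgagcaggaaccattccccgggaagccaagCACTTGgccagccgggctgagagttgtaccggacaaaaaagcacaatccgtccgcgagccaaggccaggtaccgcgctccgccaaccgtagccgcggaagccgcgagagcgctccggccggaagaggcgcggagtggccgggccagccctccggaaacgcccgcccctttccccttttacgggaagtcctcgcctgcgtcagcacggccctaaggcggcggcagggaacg
Bcl2l11, chr2:128125788-128126087, plus strand: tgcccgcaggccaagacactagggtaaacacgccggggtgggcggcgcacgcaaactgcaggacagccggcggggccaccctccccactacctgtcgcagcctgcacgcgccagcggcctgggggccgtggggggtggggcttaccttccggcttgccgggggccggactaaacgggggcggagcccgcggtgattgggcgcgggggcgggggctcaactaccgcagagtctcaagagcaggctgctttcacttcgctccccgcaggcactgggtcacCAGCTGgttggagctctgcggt
Bcl2l11, chr2:128127325-128127624, plus strand: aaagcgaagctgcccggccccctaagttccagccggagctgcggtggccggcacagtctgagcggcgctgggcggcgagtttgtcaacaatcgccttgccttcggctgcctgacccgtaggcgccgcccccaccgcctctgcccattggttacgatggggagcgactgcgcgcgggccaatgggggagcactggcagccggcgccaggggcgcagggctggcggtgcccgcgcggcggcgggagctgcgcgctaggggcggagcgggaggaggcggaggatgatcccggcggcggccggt
Bid, chr6:120916775-120917074, minus strand: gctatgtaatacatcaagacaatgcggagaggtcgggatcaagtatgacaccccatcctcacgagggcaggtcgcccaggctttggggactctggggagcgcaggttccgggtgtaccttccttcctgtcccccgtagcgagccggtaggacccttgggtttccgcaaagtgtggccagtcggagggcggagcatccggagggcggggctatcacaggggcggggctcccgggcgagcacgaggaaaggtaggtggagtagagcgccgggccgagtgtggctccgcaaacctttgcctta
The Mcl1 window holds 1 match and the first Bcl2l11 window holds 1, which is of the form CAGCTG, while the second Bcl2l11 window and the Bid window hold none. RefSeq windows were at hand for 9 of the 10 genes, 15 windows in all, of which 2 of Bbc3 overlap. A match to CANNTG was found in 10 of the 15, against 72.3% of all 32851 windows of this length. CAGCTG was found in 1 of the 15 (16.3% of all windows), and CACCTG or its reverse complement CAGGTG was found in 3 of the 15 (20.2% of all windows); each of these is also a match to CANNTG. A match describes letters in the window and does not show binding.

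Some features of the 4 arrays bear on every value below. Id2 itself was at log2 8.71 and 8.97 in Id2 KO arrays, against 9.14 and 9.08 in WT arrays, and its difference of -0.27 was not significant (limma, adjusted p = 0.172). Without Id2 KO replicate 2 the Id2 difference was -0.40 and passed (limma, adjusted p = 0.0326), and without Id2 KO replicate 1 it was -0.14 (limma, adjusted p = 0.627). Which part of the gene was removed is not stated in these sources. Whether the probe set reads the removed part was not tested, and every direction below rests on the labels. Xist was at log2 6.67 and 6.68 in Id2 KO arrays and at 11.96 in both WT arrays. Kdm5d, of the Y chromosome, was at log2 8.08 and 8.50 in Id2 KO arrays and at 5.72 and 5.53 in WT arrays. Uty, also of the Y chromosome and below the filter, was at 7.78 and 7.91 against 4.61 and 4.62. Sex-linked expression thus splits the arrays by group, and sex and genotype cannot be told apart. Of 6 tested markers of conventional dendritic cells in general 1 fell (Zbtb46, -1.02) and 5 did not pass. Both Id2 KO arrays of Zbtb46 lay below the filter level. Of 5 tested cDC2 markers 2 fell (Itgam, -0.998, and Cd4, -0.84) and 3 did not pass, Sirpa at -0.23 among them. Of 7 tested markers of plasmacytoid dendritic cells 4 rose (Siglech, Ly6d, Spib and Pacsin1). The others, Bst2 (0.04), Tcf4 (-0.07) and Ptcra (-0.08), did not pass. Of 12 neutrophil markers all 12 fell, with a summed intensity of 1563 to 2476 in Id2 KO arrays and 17984 to 18664 in WT arrays. Both Id2 KO arrays of Mmp8, Mpo, Prtn3 and Cxcr2, which are among these, lay below the filter level. Of 9 measured B cell markers, 8 were tested and 7 rose, with a summed intensity of 2242 to 2618 in Id2 KO arrays and 1273 to 1290 in WT arrays. Both WT arrays of Cr2, which rose, lay below the filter level. Of 5 tested monocyte and macrophage markers 3 fell (Chil3, -2.02, Vcam1, -0.48, and Adgre1, -0.34). Both Id2 KO arrays of Chil3 lay below the filter level. Also lower were 1 of 4 tested markers of type 1 conventional dendritic cells (Tlr3, -0.73) and 1 of 3 of T and NK cells (Cd3d, -0.43). Of 2 tested erythroid markers 1 fell (Alas2, -0.94). The other tested markers of these lists did not pass. All 11 measured cell cycle markers rose, with a summed intensity of 10174 to 12875 in Id2 KO arrays and 4304 to 4418 in WT arrays. The part of these markers in the results below was not tested. In bulk samples fewer cells of a type and less RNA per cell cannot be told apart.

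None of the 9 measured BCL2 family genes changed between the groups at an adjusted p below 0.05 (limma, Benjamini-Hochberg adjustment over all 11963 genes tested), against a background of 8.04% of all genes tested. At an unadjusted p below 0.05 there were 5 of 9, namely Bcl2, Mcl1, Bcl2l11, Bid and Bbc3, against 20.7% of all genes tested. With moderation that follows intensity (limma with a trend) the count was also 0. The differences were small, between -0.32 (Bid) and 0.37 (Bcl2l11) on the log2 scale, and no 95% interval of a member reached a 2-fold difference. The outermost ends of these intervals were 1.60-fold higher in Id2 KO cells for Bcl2l11 and 0.69 times the WT level for Bid.

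**Figure D1:**
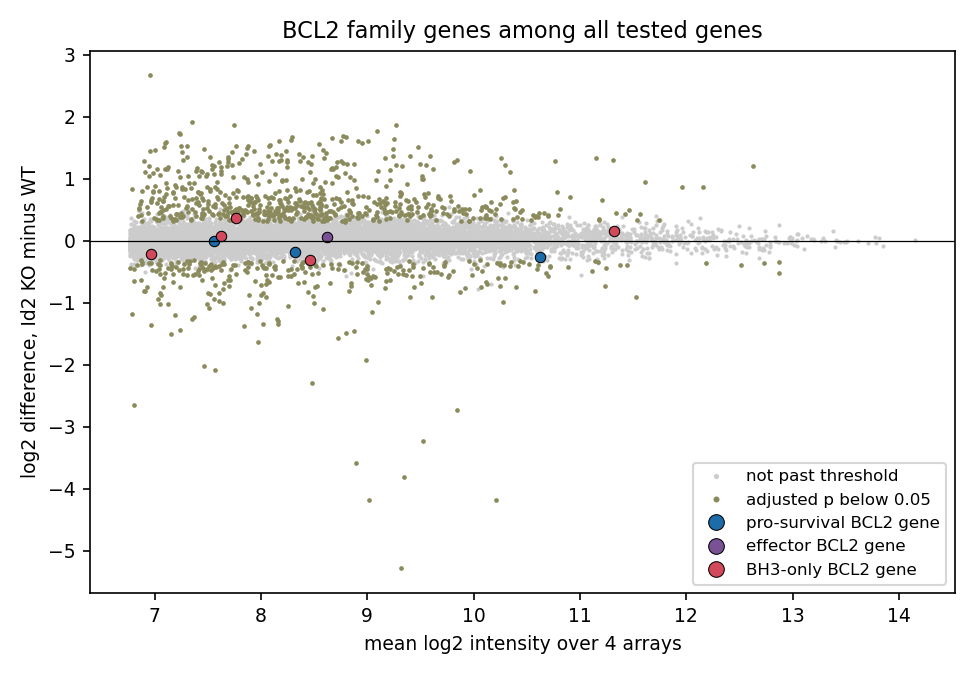
Each point is 1 of the 11963 genes tested, with its mean log2 intensity over the 4 arrays on the x axis and its log2 difference, Id2 KO minus WT, on the y axis. Genes with an adjusted p below 0.05 are darker, and the 9 BCL2 family genes, in colour by role, lie between -0.32 and 0.37 within the band of genes that did not pass.

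Among the pro-survival genes, Mcl1 and Bcl2 were measured lower in Id2 KO arrays and Bcl2l1 was level. Mcl1 encodes a short-lived protein on which many blood cells depend. It was at log2 10.40 and 10.57 in Id2 KO arrays, against 10.77 and 10.74 in WT arrays. Both Id2 KO arrays thus lay below both WT arrays, with the first Id2 KO array the lowest. The difference of -0.27 (SE 0.088, 95% interval -0.47 to -0.07) did not pass (limma, adjusted p = 0.114). It was -0.35 without Id2 KO replicate 2 and -0.18 without Id2 KO replicate 1.

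Bcl2, the founding pro-survival member, was at log2 8.20 and 8.25 in Id2 KO arrays and at 8.43 and 8.42 in WT arrays. The groups did not overlap, and each was tight. The difference was -0.19 (SE 0.079, 95% interval -0.37 to -0.01), or 0.87 times the WT level, and did not pass (limma, adjusted p = 0.209). Bcl2l1, which encodes BCL-XL and its short death-promoting splice form, measured together by its probe set, was at log2 7.53 and 7.58 in Id2 KO arrays and at 7.55 and 7.58 in WT arrays. The groups overlapped, and the difference of -0.01 had a 95% interval from -0.20 to 0.17 (limma, adjusted p = 0.948), which leaves room for a difference of up to 0.87 or 1.12 times the WT level.

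Of the effectors, Bak1, which encodes the pore protein BAK that resides on mitochondria, was at log2 8.73 and 8.57 in Id2 KO arrays and at 8.59 and 8.59 in WT arrays. The first Id2 KO array was the highest and the second the lowest of the 4, so the groups overlapped. The difference, whose sign turned without Id2 KO replicate 1, was 0.06 (SE 0.086, 95% interval -0.14 to 0.25; limma, adjusted p = 0.783).

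**Figure D2:**
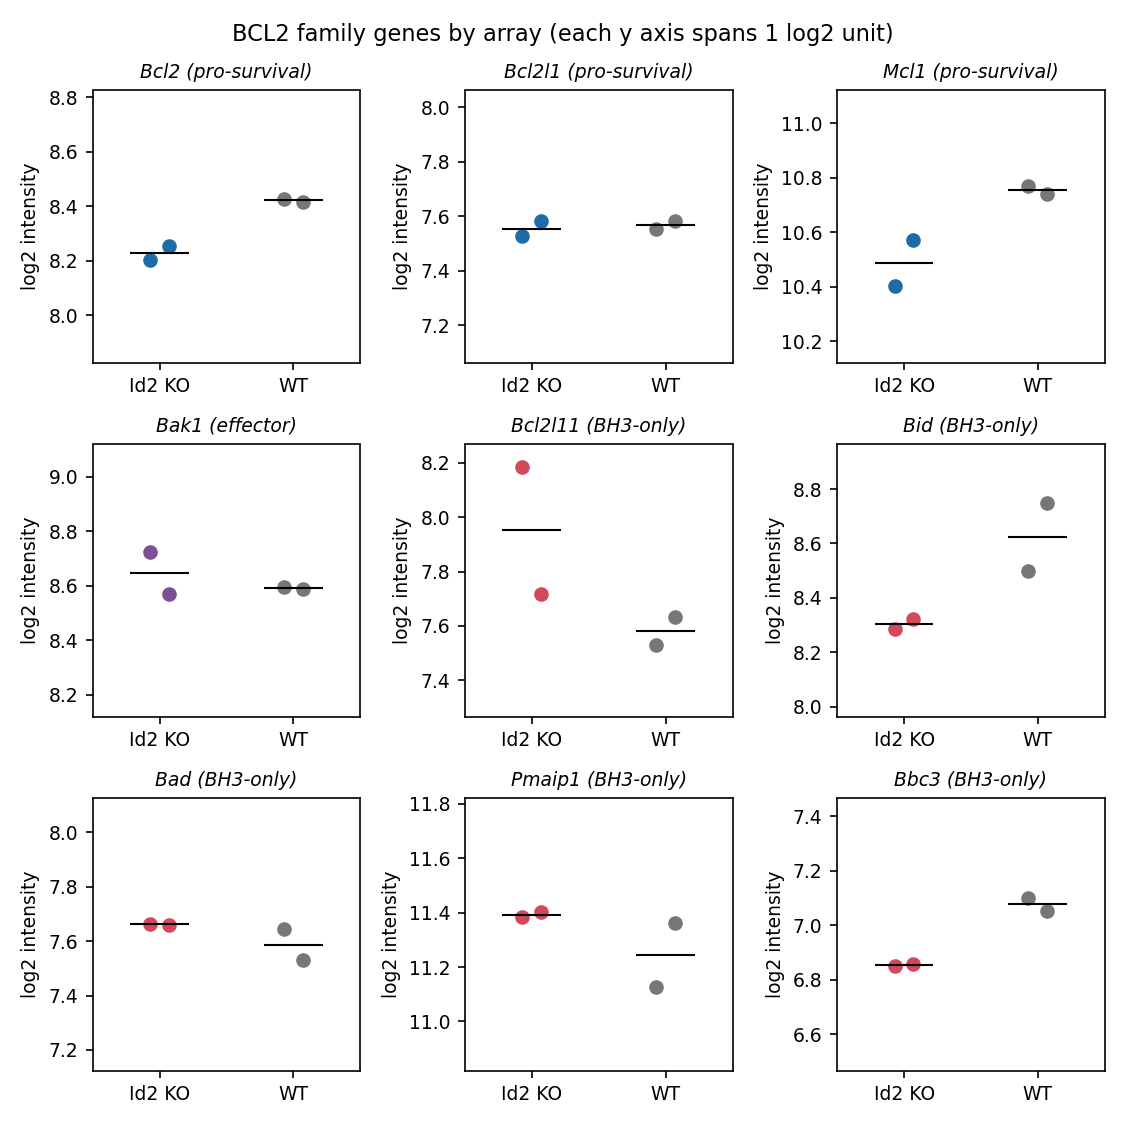
Log2 intensity of the 9 measured BCL2 family genes, 1 panel per gene, with 2 Id2 KO arrays in colour and 2 WT arrays in grey and a line at each group mean. Every y axis spans 1 log2 unit but starts at its own level, and the groups overlap for Bcl2l1 and Bak1.

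The BH3-only genes went in both directions. Bcl2l11 encodes BIM, which binds all pro-survival members and can activate the effectors. Its log2 level was 8.18 and 7.72 in Id2 KO arrays, against 7.53 and 7.63 in WT arrays. Both Id2 KO arrays lay above both WT arrays, yet the gap of 0.46 between the Id2 KO arrays was larger than the difference between the groups, 0.37 (SE 0.14, 95% interval 0.06 to 0.68), which did not pass (limma, adjusted p = 0.167). Without Id2 KO replicate 2 the difference was 0.60 and passed (limma, adjusted p = 0.00418), and without Id2 KO replicate 1 it was 0.14 and did not (limma, adjusted p = 0.637). All 11 measured cell cycle markers were also higher in the first Id2 KO array than in the second, and the part of this in the Bcl2l11 value was not tested. The probe set does not separate the BIM splice forms.

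Bid encodes the sensor that caspase-8 cleaves to link death receptors to mitochondria. Its level was log2 8.29 and 8.32 in Id2 KO arrays and at 8.50 and 8.75 in WT arrays. Both Id2 KO arrays lay below both WT arrays, and the WT arrays were the more spread. The difference of -0.32 (SE 0.099, 95% interval -0.54 to -0.09) had the lowest adjusted p of the members and did not pass (limma, adjusted p = 0.0951). With renewed quantile normalization of the arrays it was -0.37 and passed (limma, adjusted p = 0.0458). Without WT replicate 2 the Bid difference was -0.19, over 1.5 times smaller, and without WT replicate 1 it was -0.44.

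Bbc3, which encodes the p53-inducible sensor PUMA, was at log2 6.85 and 6.86 in Id2 KO arrays and at 7.10 and 7.05 in WT arrays. The groups did not overlap, with a difference of -0.22 (SE 0.079, 95% interval -0.40 to -0.04; limma, adjusted p = 0.142). It was close to the filter level of log2 6.77, where the size of a difference is less certain. Pmaip1 encodes NOXA, a sensor that binds mainly MCL-1. It was at log2 11.38 and 11.40 in Id2 KO arrays and at 11.13 and 11.36 in WT arrays. The second WT array lay beside the Id2 KO arrays and the first below them, and the difference was 0.15 (95% interval -0.07 to 0.37; limma, adjusted p = 0.451). It was 0.029 without WT replicate 1 and 0.26 without WT replicate 2. Bad encodes a sensor that is switched off by phosphorylation downstream of growth factors. It was at log2 7.66 in both Id2 KO arrays and at 7.64 and 7.53 in WT arrays, a difference of 0.08 (95% interval -0.11 to 0.26; limma, adjusted p = 0.681). The Bad difference was 0.13 without WT replicate 1 and 0.019 without WT replicate 2.

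**Figure D3:**
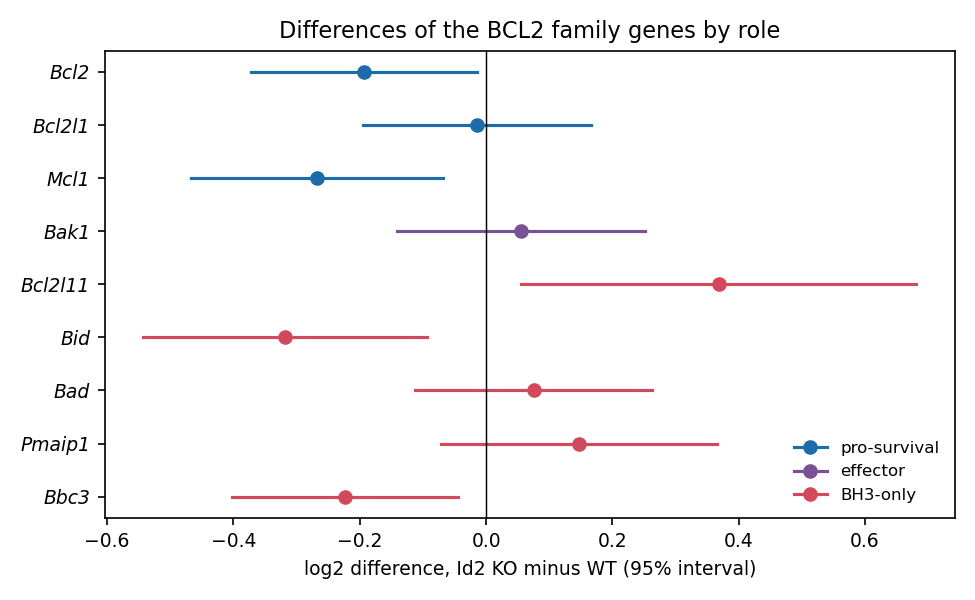
Log2 difference, Id2 KO minus WT, of the 9 measured BCL2 family genes from top to bottom by role, with bars for 95% intervals from limma that are not adjusted for the number of genes. The pro-survival points lie at or below 0, and the BH3-only points lie on both sides, from -0.32 (Bid) to 0.37 (Bcl2l11).

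By role, the median log2 difference was -0.19 over the 3 pro-survival genes, 0.06 for the single effector and 0.08 over the 5 BH3-only genes, beside 0.01 over all genes tested. The BH3-only median was 0.029 without WT replicate 1, 0.019 without WT replicate 2 and 0.15 over the 3 BH3-only genes above the 60th percentile. All 3 pro-survival differences were negative, though that of Bcl2l1 turned positive with median-centred arrays and in some settings with 1 array left out, while 3 BH3-only differences were positive and 2 negative. The mean log2 level of the pro-survival genes was 8.71 and 8.80 in Id2 KO arrays and 8.92 and 8.91 in WT arrays. That of the BH3-only genes was 8.47 and 8.39 in Id2 KO arrays and 8.38 and 8.47 in WT arrays. The pro-survival mean was thus lower in both Id2 KO arrays, and the BH3-only mean overlapped between the groups, with opposite differences of Bcl2l11 and of Bid and Bbc3 within it. With 1 to 3 genes in 2 of the roles these are descriptions, and the difference between roles was not tested.

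The groups did not overlap for 7 of the 9 members, where 50.7% of all genes tested did not overlap. Id2 KO arrays were both above WT arrays for Bcl2l11, Bad and Pmaip1, 3 of 9 (27.9% of all genes tested), and both below for Bcl2, Mcl1, Bid and Bbc3, 4 of 9 (22.8% of all genes tested). The median size of the difference, sign aside, was 0.19 over the 9 members and 0.10 over all genes tested.

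**Figure D4:**
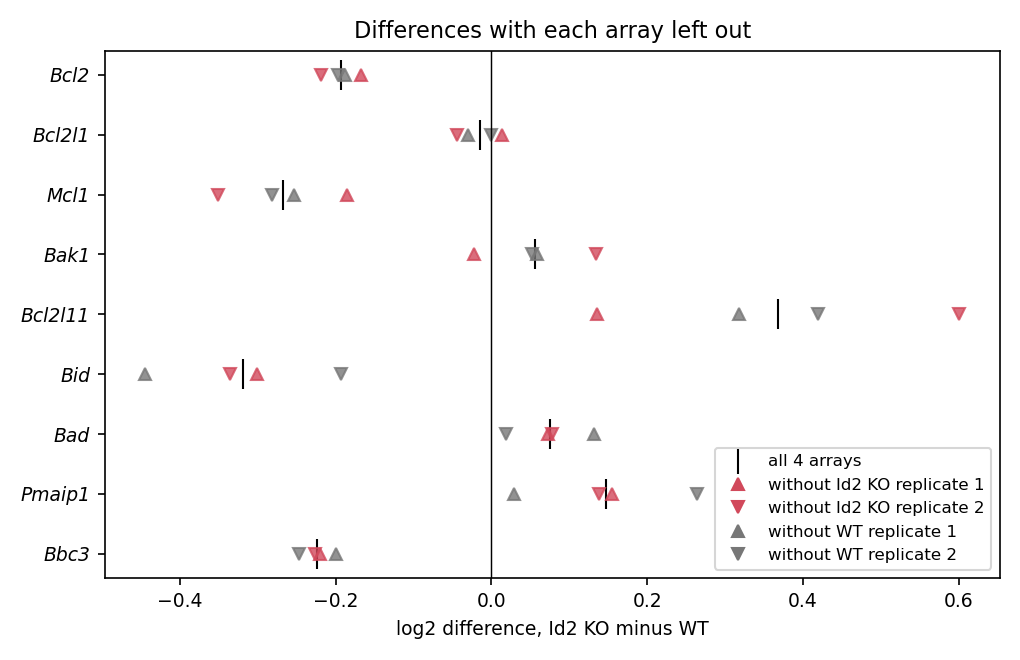
Log2 difference, Id2 KO minus WT, of the 9 BCL2 family genes with all 4 arrays (vertical mark) and with each array left out in turn (triangles). Bcl2l11 ranges from 0.14 to 0.60, the widest range of the 9. Bcl2, Mcl1, Bid and Bbc3 stay below 0, Bad and Pmaip1 stay above 0, and Bcl2l1 and Bak1 lie on both sides of 0.

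Other genes of the pathway were taken from 9 lists holding 55 genes, of which 48 had a probe set of their own symbol and 44 were tested. Of the 44, 2 rose (background 5.53% of all genes tested), 1 fell (background 2.52%) and 41 did not pass, with a median log2 difference of 0.01, as over all genes tested. Ripk1, Trp53 and the Bcl2a1a, Bcl2a1b and Bcl2a1d copies of the pro-survival gene A1 were among the listed genes not analysed here.

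Among further BCL2 relatives, Bcl2l14, which encodes BCL-G, a family member whose part in cell death is disputed, rose. The gene was at log2 7.75 and 7.63 in Id2 KO arrays, against 6.998 and 7.18 in WT arrays, a 1.52-fold rise with a difference of 0.60 (SE 0.093, 95% interval 0.39 to 0.82; limma, adjusted p = 0.0042). The other 3 tested multi-domain genes, Bok, Bcl2l12 and Bcl2l13, did not pass. Neither tested member of the other pro-survival genes passed. Bcl2a1c, the only A1 copy with a probe set of its own symbol, was at 0.15 (limma, adjusted p = 0.364) and at 0.083 without WT replicate 2. Another 3 probe sets of A1 genes carry several symbols and were not used, so the A1 genes as a whole were not assessed. Bcl2a1c resembles the other A1 genes in sequence, so its probe set may read more than 1 of them. The array does not show whether Bcl2a1c makes a pro-survival protein. None of the 6 other BH3-only and BH3-related genes passed, and the largest difference was that of Bmf, a sensor linked to loss of cell attachment, at -0.23 (limma, adjusted p = 0.141).

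Downstream of the pore, none of the 7 tested genes of the apoptosome and released factors and none of the 3 tested caspases passed. Htra2, a mitochondrial protease that counters caspase inhibitors once released, had a difference of 0.27 (limma, adjusted p = 0.0804), and Casp6, an executioner caspase gene, one of -0.34 (limma, adjusted p = 0.0812). The Casp6 difference was -0.47 and passed without Id2 KO replicate 2 (limma, adjusted p = 0.0143), and was -0.21 without Id2 KO replicate 1 (limma, adjusted p = 0.354). Of 5 caspase inhibitors 1 rose. Birc2, which encodes the ubiquitin ligase cIAP1, was at log2 9.49 and 9.58 in Id2 KO arrays and at 9.17 and 9.25 in WT arrays, a difference of 0.33 (limma, adjusted p = 0.046). This call did not hold when any 1 array was dropped, nor in 4 other settings, with an adjusted p of up to 0.298. Xiap, the direct inhibitor of caspases, had a difference of 0.38 that did not pass (limma, adjusted p = 0.101). Xiap lies on the X chromosome, and sex and genotype cannot be told apart in these arrays. The Xiap difference was 0.57 and passed without WT replicate 2 (limma, adjusted p = 0.0214), and was 0.19 without WT replicate 1 (limma, adjusted p = 0.566).

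At the membrane and at the cell surface no tested gene passed. Vdac1, a channel of the outer mitochondrial membrane, had the largest difference of 4 membrane partners at 0.30 (limma, adjusted p = 0.114). This was 0.43 and passed without Id2 KO replicate 2 (limma, adjusted p = 0.0225), and was 0.18 without Id2 KO replicate 1 (limma, adjusted p = 0.469). Fas, the death receptor gene, was at log2 6.91 and 7.30 in Id2 KO arrays and at 6.63 and 6.69 in WT arrays, a difference of 0.45 (limma, adjusted p = 0.0604) that passed with median-centred arrays (limma, adjusted p = 0.0228) and with renewed quantile normalization (limma, adjusted p = 0.0463). Without Id2 KO replicate 1 the Fas difference was 0.64 and passed (limma, adjusted p = 0.00312), and without Id2 KO replicate 2 it was 0.25 and did not (limma, adjusted p = 0.163). Both WT arrays of Fas lay below the filter level.

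Among 9 tested genes that control the level of members, Ddit3 fell and the others did not pass. Ddit3 encodes CHOP, a transcription factor of the unfolded protein response that is known to raise Bcl2l11 and Bbc3 and to lower Bcl2 under stress. Ddit3 was at log2 8.71 and 8.68 in Id2 KO arrays, against 9.35 and 9.31 in WT arrays. The groups did not overlap, with gaps of 0.03 between the Id2 KO arrays and 0.04 between the WT arrays, and a difference of -0.63 (SE 0.079, 95% interval -0.81 to -0.45; 1.55-fold lower; limma, adjusted p = 0.00132).

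**Figure D5:**
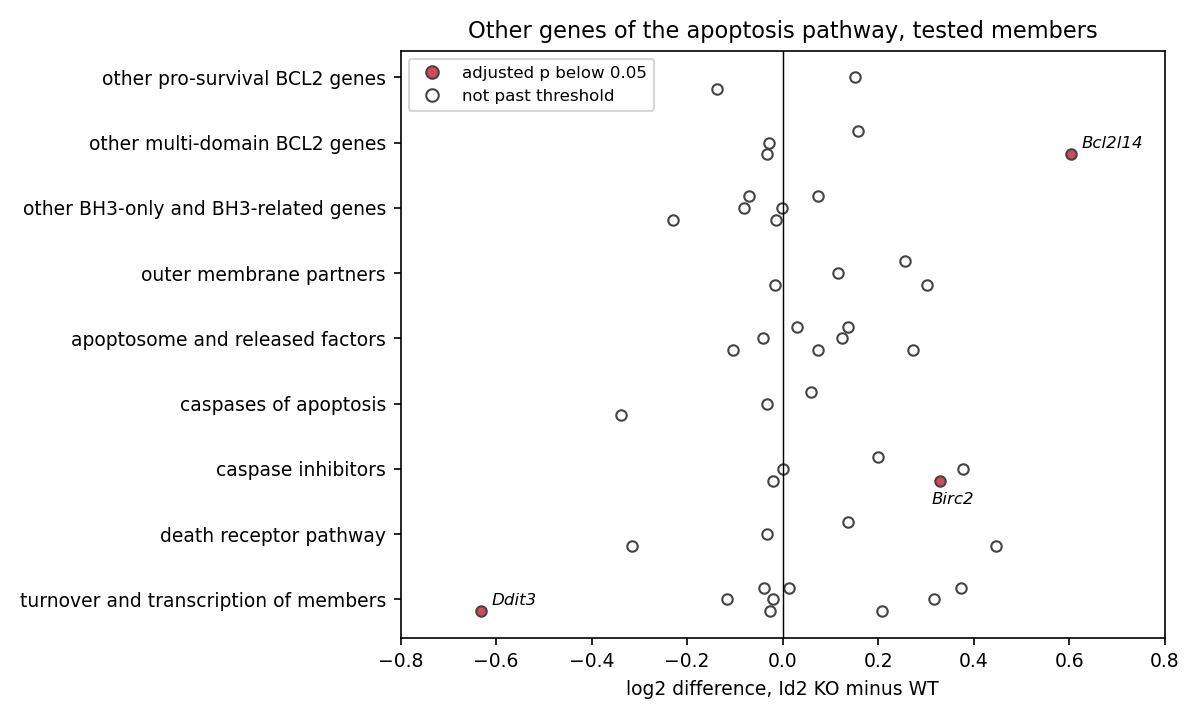
Log2 difference, Id2 KO minus WT, of the 44 tested genes of 9 apoptosis pathway lists, 1 point per gene with lists from top to bottom. Filled points have an adjusted p below 0.05 and are Bcl2l14 (0.60), Birc2 (0.33) and Ddit3 (-0.63).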

How the data were processed

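Gene expression was measured on 4 Affymetrix arrays, 2 Id2 KO and 2 WT. Per the labels, RNA of sorted cDC2 was amplified from small amounts with a NuGen system before labelling, which can compress differences. The deposited values are intensities on a linear scale, and Affymetrix Expression Console and RMA are named, without a version, per the submitters' processing notes. The step back from RMA's log2 scale to linear is not given in the sources used here. Median intensities were 128 and 132 in Id2 KO arrays and 134 and 130 in WT arrays. Scaling between arrays removes changes in total RNA per cell.

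The log2 of each intensity was taken without a pseudocount. Of 28853 probe sets, 21789 had 1 symbol in the platform annotation, 1621 had several and 5443 had no symbol or were not listed. Genes whose mean over the arrays exceeded the 40th percentile (log2 6.77) were tested with limma 3.58.1 in R 4.3.3, Id2 KO minus WT, two-sided, at an adjusted p of 0.05. The procedure was run on simulated data with the same spread for every gene, unlike these arrays. That run does not show how small a difference could be found here. Members and lists were chosen with earlier results of these data known. Named genes were all members, Id2, and from each pathway list those past the threshold and that with the largest difference. Alternatives were other filters, scalings, probe set rules, a trend, the replicate number as a block and each array left out. The number of arrays limits the precision. No sequence of Pmaip1 is printed here.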

Additional observations from a re-analysis of the deposited data

How the results depend on the processing

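Of all genes tested, 962 changed, and 459 to 1171 with 1 array left out, 459 without WT replicate 1 and 627 without WT replicate 2. The 0 BCL2 family calls became 1 with renewed quantile normalization (Bid, -0.37, adjusted p = 0.0458) and 1 without Id2 KO replicate 2 (Bcl2l11), a range of 0 to 1 with 1 array left out. With 1 array left out, Bcl2l11 ranged from 0.14 to 0.60, Bak1 from -0.023 to 0.13 and Bcl2l1 from -0.044 to 0.014, and with median-centred arrays Bcl2l1 was 0.0054. The other 7 members kept their sign in every setting run. The pro-survival median was -0.23 above the 60th percentile, where Bcl2l1 drops out, and -0.24 with renewed quantile normalization. The 3 calls of the pathway lists became 7 without Id2 KO replicate 2, in a range of 2 to 7.

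The labels number the replicates of both groups 1 and 2, and deviations of same-numbered arrays correlated at -0.14 over 19938 genes, so the numbers give no sign of pairing. With the replicate number as a block, 684 genes changed, 0 of them BCL2 family members. Crossed numbers as a block, chosen after seeing the data, gave 1380 changed genes, 1 BCL2 family call (Bcl2l11, 0.37, adjusted p = 0.0396) and 9 calls in the pathway lists. The cause of these shifts was not tested.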
